A study of Mus musculus with 18 samples.

Results

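RNA of spinal cord microglia from mice with experimental autoimmune encephalomyelitis (EAE, a model of the demyelinating disease multiple sclerosis) was compared between 6 libraries of metformin-treated mice and 6 libraries of control-treated mice. The libraries were chosen by their labelled disease and treatment and make up 12 of the 18 libraries of the series. The other 6, from control-treated healthy mice, entered the fit and are given beside the EAE values. All mice were labelled female and WT and carried Tmem119-Cre:RiboTag, in which a Cre recombinase driven from the microglial gene Tmem119 is combined with an Rpl22 allele whose ribosomal protein gains an epitope tag after Cre acts. The labels name total RNA and describe no pull-down of tagged ribosomes. They give no dose of metformin, no day of treatment, no age and no statement on pooling, and they do not say that the replicates were separate animals. The p-values therefore measure the spread between these libraries, which may be technical in part. In bulk RNA of this kind, fewer cells of a type and less RNA per cell cannot be told apart.

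Microglia are macrophages that reside in brain and spinal cord. At rest they express sensors such as the purinergic receptor P2ry12 and the fractalkine receptor Cx3cr1. In demyelinating disease they lose part of this set and take up lipid-rich myelin debris, with a rise of lipid carriers, lysosomal genes and inflammatory mediators. Metformin is an antidiabetic biguanide that inhibits respiratory complex I and raises the activity of AMPK, the kinase that senses cellular energy. The comparison asks how RNA of microglia in EAE differed between metformin-treated and control-treated mice.

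Total counts were 46.3 to 58.3 M (M is 1000000 reads) in control EAE and 46.2 to 56.0 M in metformin EAE libraries, and no difference in depth was detected (exact two-sided permutation test, adjusted p = 0.406). Metformin EAE replicate 22 stood apart from the other 5 metformin libraries. Apoe, the lipid carrier apolipoprotein E, took 0.834% of its counts, against 6.71 to 9.24% in the other 5, 11.3 to 16.5% in the control EAE group and 0.216 to 0.55% in the healthy group. Replicate 22 lay outside the range of the other 5 metformin libraries in 11442 of 16740 genes (68.4%), where each of the other 5 lay outside the range of its fellows in 18.9 to 36.1%. It lay inside the range of the healthy libraries in 62.3% of genes, against 35.2 to 46.6% for the other 5. For Cd74, the chaperone of MHC class II, it stood apart from healthy libraries as well, at 915 CPM (TMM-scaled counts per 1000000) against 52.8 to 76.4 CPM in healthy and 4120 to 12800 CPM in the other 5 metformin libraries. The main results are therefore given with all 6 metformin libraries and again with 5, without replicate 22. Control EAE replicate 10 had the lowest correlation with its own group among control EAE libraries (Pearson r = 0.974 over genes, against 0.99 to 0.997). In each EAE library the microglial markers Tmem119, P2ry12, Sall1, Siglech, Fcrls, Cx3cr1 and Csf1r, were above 40 CPM, while Trem2 was listed at 0 in all 18 libraries. So were 43 other genes of the 914 list genes in the table.

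The 10 most abundant genes took 19.1 ± 4.72% of counts in metformin EAE and 28.3 ± 2.71% in control EAE (SD, n = 6 each, exact permutation adjusted p = 0.00648). Without replicate 22 the metformin share was 20.8 ± 2.64% (n = 5, exact permutation adjusted p = 0.013). Mitochondrially encoded genes took 0.345 ± 0.268% against 0.14 ± 0.0379% (exact permutation adjusted p = 0.00648), and 0.237 ± 0.0532% with 5 metformin libraries (exact permutation adjusted p = 0.013). The smallest p these tests can give is 0.00216. The TMM factors, which scale each library to a common composition, were 0.903 to 1.18 in metformin EAE and 0.801 to 0.957 in control EAE.

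**Figure D1:**
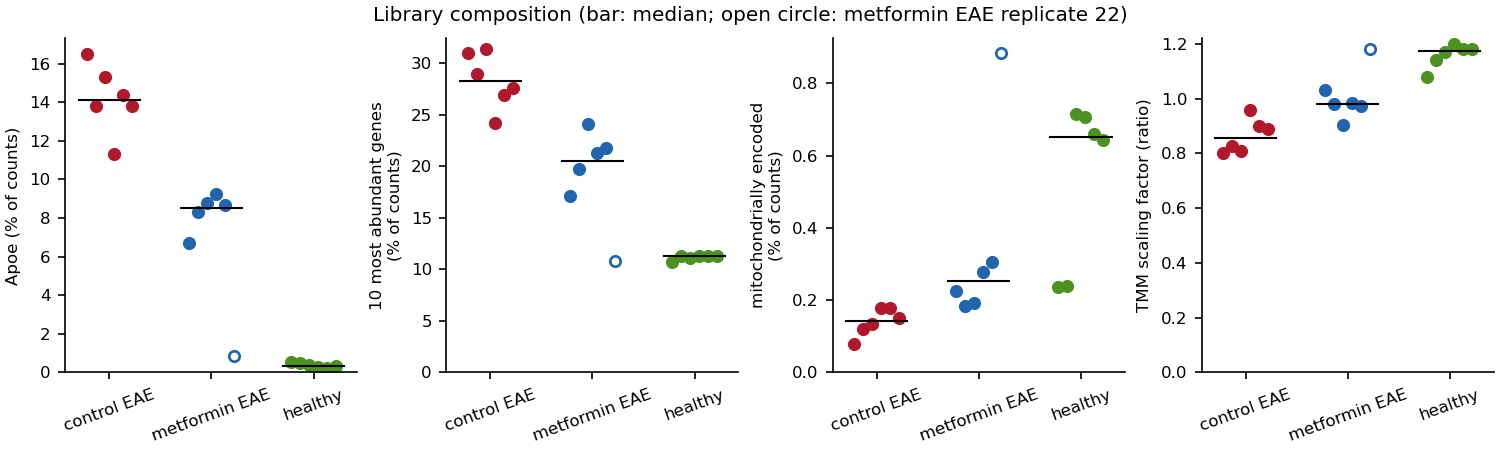
Composition of the 18 libraries by group: Apoe, the 10 most abundant genes and mitochondrially encoded genes as % of counts, and the TMM factor as a ratio; points are libraries, bars are medians and the open circle is metformin EAE replicate 22. The 5 filled metformin points lie between control EAE and healthy libraries for Apoe (6.71 to 9.24%), and replicate 22 lies near the healthy libraries (0.834%).

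Across all genes, 2087 of 16740 were higher with metformin (12.5%) and 2024 were lower (12.1%), 24.6% in all, at an adjusted p under 0.05 (edgeR's quasi-likelihood test, Benjamini-Hochberg over all genes). With 5 metformin libraries 1435 of 16875 were higher (8.5%) and 1661 lower (9.84%), 18.3% in all. Changes of at least 2-fold were fewer, 403 higher (2.41%) and 176 lower (1.05%) with all 6, and 167 higher (0.99%) and 133 lower (0.788%) with 5. Called in both fits were 1387 higher and 1581 lower genes, which is 66.5% of the higher and 78.1% of the lower calls with all 6, and 96.7% and 95.2% of the calls with 5. No gene was called in opposite directions. Groups did not overlap, with every metformin library above every control EAE library, in 821 genes (4.9%), and with all 6 below all control EAE libraries in 911 genes (5.44%). With 5 libraries these were 904 (5.36%) and 971 (5.75%). When library totals alone set the scale, in place of TMM, 28.1% of genes were higher and 3.68% lower (20% and 2.74% with 5), 88.4% of calls higher against 50.8% (88.0% against 46.4% with 5), and the median of all genes moved from 0.01 to 0.231 on the log2 scale (-0.002 to 0.168 with 5). Fitted on the 12 EAE libraries without the healthy ones, 1292 were higher (906 with 5). Without control EAE replicate 10 the counts were 2184 and 2036 with all 6 and 1725 and 1811 with 5. Leaving out metformin replicate 5 or 6 in addition to 22 lowered the counts to 852 higher and 1041 lower, and to 899 and 1046.

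**Figure D2:**
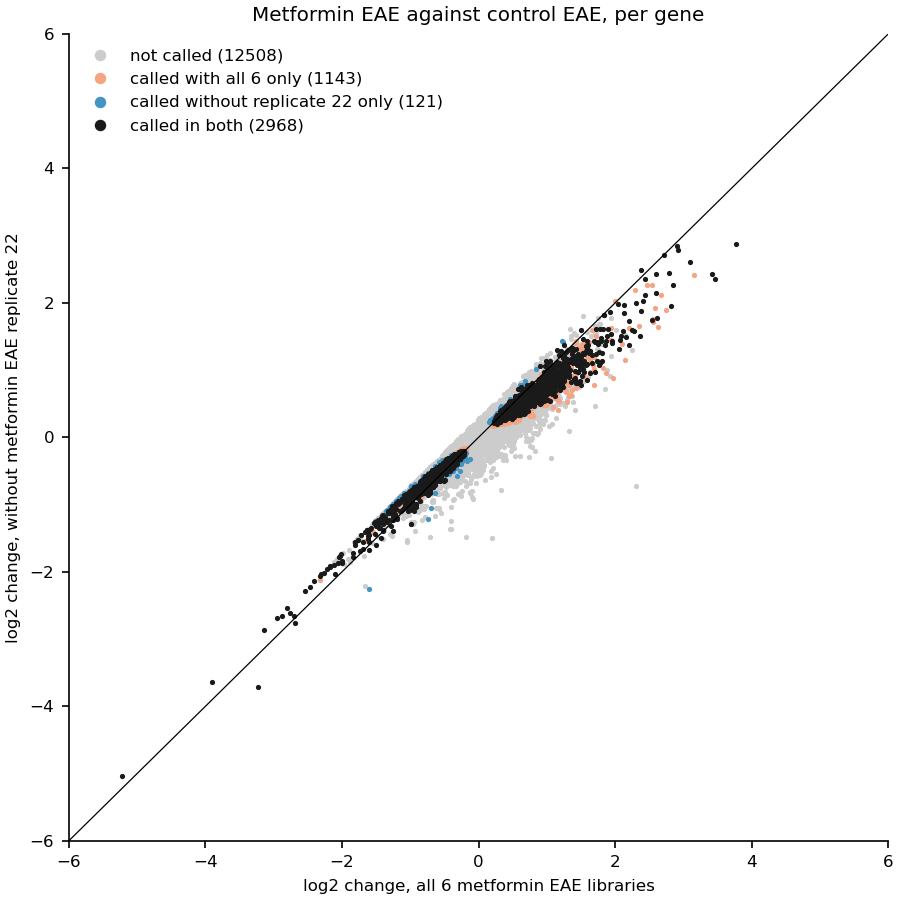
Log2 change of each gene, metformin EAE over control EAE, with all 6 metformin libraries (x axis) and without replicate 22 (y axis); the line marks equal values. Of the 16740 genes in both fits 2968 were called in both (black), 1143 with all 6 only and 121 without replicate 22 only, and many higher genes lie below the line, with a smaller change without replicate 22.

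A change is the log2 ratio of metformin EAE to control EAE ± its standard error, first with all 6 metformin libraries and then with 5, and levels are in CPM. The 5 metformin values are in the order of replicates 5, 6, 13, 14 and 21. Each of the 12 EAE libraries was also left out in turn (the 11 others with 5). Where that ended a call, each such library is named after "lost without", with the adjusted p reached. Other settings were a fit of the 12 EAE libraries only, no filter on low counts, limma voom with quality weights, the range of the title number as a covariate, removal of the length trend, and scaling by library totals. Where one of them ended a named call or moved a called change by over 1.5 times, this stands at the end of the paragraph that first gives the change, and list counts that moved as far stand beside the list. List counts of 3 or fewer moved by 1 or 2 genes in many settings. Each list count is to be read beside the shares of all genes in the same fit. In the main fits these were 12.5% higher and 12.1% lower with all 6, and 8.5% and 9.84% with 5. With library totals they were 28.1% and 3.68%, and 20% and 2.74% with 5. With the EAE libraries only they were 8.03% and 8.77%, and 5.59% and 6.86% with 5. No filter gave 7.04% and 6.76%, and 4.86% and 5.37% with 5. Limma voom gave 11.9% and 12.9%, and removal of the length trend 9.12% and 10.7%, with all 6.

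Genes of resting microglia were higher with metformin. Of 18 homeostatic genes tested (20 listed, Trem2 at 0), 14 were higher with all 6 libraries and 13 with 5, and none was lower, beside 12.5% and 8.5% of all genes. The median log2 change of the list was 0.89 with all 6 and 0.71 with 5, where the median of all genes was 0.01 and -0.002. Leaving out any 1 library gave 13 to 15 higher with all 6 and 11 to 14 with 5, with at most 1 lower.

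P2ry12, a Gi-coupled receptor for ADP that steers microglial processes to sites of damage (ENSMUSG00000036353, chromosome 3, 59216272 to 59262871 in GRCm38), was at 43.1 to 130 CPM (median 79.8) in control EAE. In metformin EAE it was at 361, 223, 171, 208 and 213 CPM, with 696 CPM in replicate 22 and 403 to 790 CPM in healthy libraries. Every metformin library lay above every control EAE library, and replicate 22 lay inside the healthy range. Its change was 1.94 ± 0.34 with all 6 (adjusted p = 0.00185) and 1.53 ± 0.26 with 5 (adjusted p = 0.00157).

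Sall1, a transcription factor that maintains microglial identity (ENSMUSG00000031665, chromosome 8, 89027235 to 89044162), was at 150 to 293 CPM (median 218) in control EAE and at 660, 635, 379, 466 and 384 CPM with metformin, with 922 in replicate 22. The groups did not overlap, and the change was 1.39 ± 0.19 with all 6 (adjusted p = 0.00062) and 1.21 ± 0.16 with 5 (adjusted p = 0.000493). Cx3cr1, the receptor for the neuronal chemokine fractalkine, was at 841 to 1600 CPM (median 1110) in control EAE. Its levels with metformin were 2950, 2790, 2020, 2330 and 2130 CPM and 5170 in replicate 22, all above the control EAE range. The change of Cx3cr1 was 1.36 ± 0.20 with all 6 (adjusted p = 0.0007) and 1.12 ± 0.15 with 5 (adjusted p = 0.000493). For Tmem119, the gene that drives Cre in these mice, control EAE levels were 240 to 363 CPM (median 338) and metformin levels 697, 662, 444, 484 and 373 CPM, with 970 in replicate 22. The lowest metformin library was just above the highest control EAE library, and the change was 0.93 ± 0.18 with all 6 (adjusted p = 0.0025) and 0.74 ± 0.15 with 5 (adjusted p = 0.00364).

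Other homeostatic genes with higher levels in both fits were the receptors P2ry13 (log2 changes of 1.27 and 1.01), Gpr34 (1.04 and 0.98) and Csf1r (0.89 and 0.71), the TGF-beta receptor Tgfbr1 (0.73 and 0.73) and the lectin Siglech (1.86 and 1.37). So were the matrix protein Sparc (0.89 and 0.70) and the transcription factor Sall3 (0.69 and 0.57). Selplg (0.95 and 0.70), a selectin ligand, was higher too, with 5 lost without metformin EAE 5 (adjusted p = 0.0502), and so was the Golgi protein Golm1 (0.68 and 0.50), with 5 lost without metformin EAE 5 and 6 (adjusted p up to 0.0679). The Fc receptor-like Fcrls (-0.47 ± 0.17, adjusted p = 0.0511 with all 6, -0.45 ± 0.18, adjusted p = 0.0905 with 5), another marker of microglia, did not pass the test. All of these homeostatic genes but P2ry12, Sall1, Cx3cr1, Tmem119 and Siglech were named after their values were seen. Golm1 with 5 lost its call in the fit of EAE libraries only (adjusted p = 0.0654). Selplg changed by 0.59 and Golm1 by 0.38 with all 6, with limma voom.

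**Figure D3:**
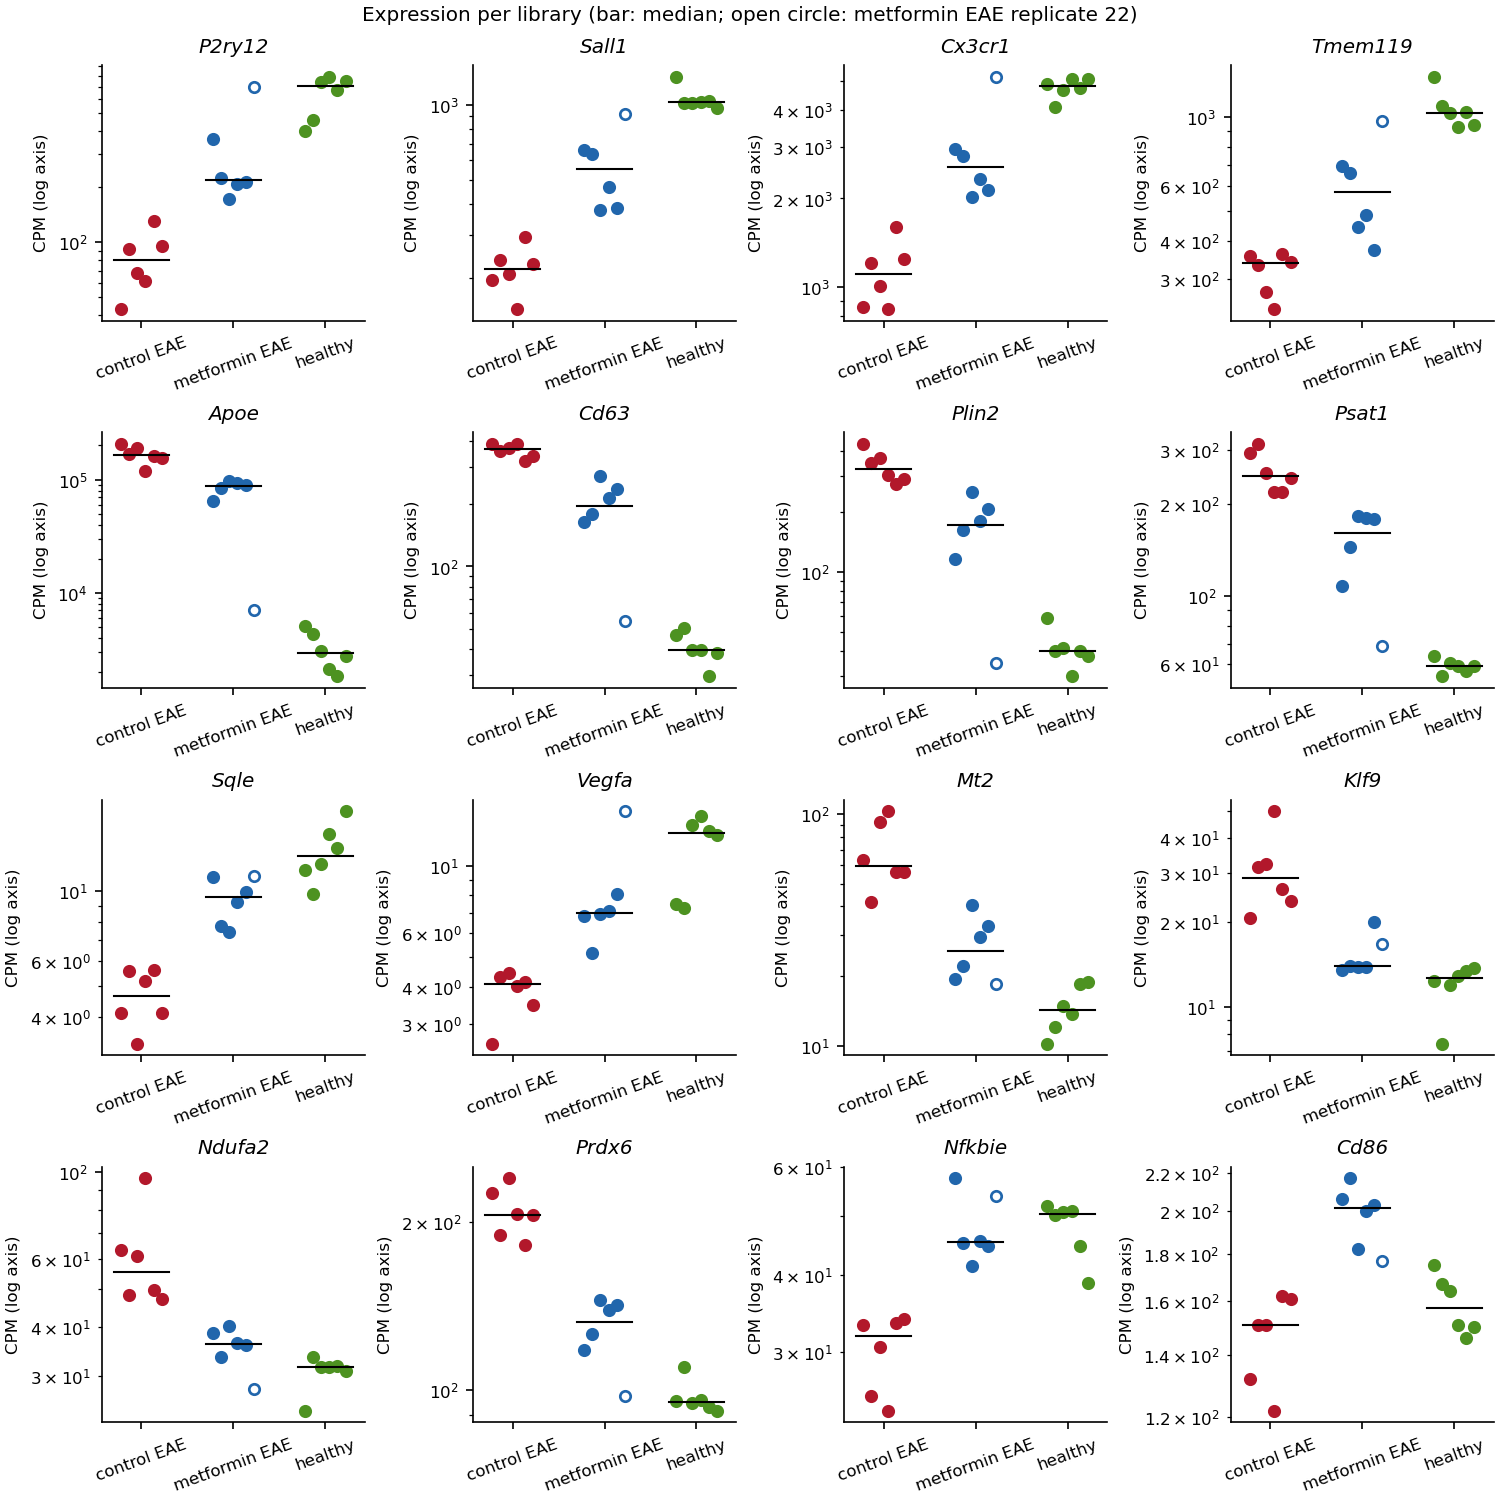
Levels of 16 genes in each of the 18 libraries, in CPM on log axes, by group; bars are medians and the open circle is metformin EAE replicate 22. In P2ry12, Sall1, Cx3cr1, Tmem119, Sqle, Vegfa, Nfkbie and Cd86 every metformin library is above, and in Apoe, Cd63, Plin2, Psat1, Mt2, Klf9, Ndufa2 and Prdx6 every metformin library is below, every control EAE library. All 16 genes shown are of this kind, where of all genes 4.9% were higher and 5.44% lower without overlap. Genes of the text whose groups overlap, such as Spp1, Cd74 and Tsc22d3, are not shown.

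The largest rises among genes of at least 5 CPM that were called in both fits were led by Trp53bp1, a DNA damage response gene, and Tubgcp4, a component of the microtubule-nucleating gamma-tubulin ring. Trp53bp1 (ENSMUSG00000043909, chromosome 2, 121193281 to 121271407) changed by 2.61 ± 0.51 with all 6 (adjusted p = 0.00297) and 1.77 ± 0.32 with 5 (adjusted p = 0.00229), and Tubgcp4 (ENSMUSG00000027263, chromosome 2, 121170654 to 121198770) by 2.25 ± 0.43 with all 6 (adjusted p = 0.00279) and 1.59 ± 0.28 with 5 (adjusted p = 0.00208). They overlap on chromosome 2, and since the counting is not given in the sources used here, their reads cannot be told apart with certainty. Trp53bp1 was at 214 to 688 CPM (median 476) in control EAE, at 3260, 1620, 859, 1200 and 1020 CPM with metformin and at 9070 CPM in replicate 22. Replicate 5 had the highest level after replicate 22 in this gene, as it had in Bcar1 and Itga9. Trp53bp1 changed by 1.55 and Tubgcp4 by 1.39 with all 6, with limma voom.

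Bcar1 and Efs, which encode related Cas-family adaptors of integrin signalling, were higher. Bcar1 changed by 2.17 ± 0.44 with all 6 (adjusted p = 0.00318) and 1.49 ± 0.28 with 5 (adjusted p = 0.00266). Efs changed by 1.77 ± 0.37 with all 6 (adjusted p = 0.00351) and 1.27 ± 0.26 with 5 (adjusted p = 0.00407). Itga9, an integrin subunit, was at 3.25 to 6.81 CPM (median 5.15) in control EAE and 27, 15.4, 8.06, 7.78 and 6.97 CPM with metformin, with 66.2 in replicate 22. Its change was 2.06 ± 0.47 with all 6 (adjusted p = 0.00585) and 1.32 ± 0.30 with 5 (adjusted p = 0.00732), and 0.86 without replicate 5 as well. Rapgef5 (1.79 and 1.43), an exchange factor for Rap GTPases, and Mir124a-1hg (2.07 and 1.45), the host transcript of a neuronal microRNA, completed the largest rises together with Siglech, P2ry12 and Xist. Mir124a-1hg was at 1.56 to 3.45 CPM (median 2.27) in control EAE, 7.25, 6.13, 4.98, 8.54 and 6.33 CPM with metformin and 27.8 in replicate 22. Nav3 (1.74 ± 0.23, adjusted p = 0.00062 with all 6, 1.41 ± 0.15, adjusted p = 0.000101 with 5), a microtubule-associated protein, was higher as well and was named after its values were seen. Bcar1 changed by 1.38, Efs by 1.14, Itga9 by 1.07 and Mir124a-1hg by 1.37 with all 6, with limma voom.

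Xist, the RNA that coats the inactive X chromosome, was at 1.23 to 6.06 CPM (median 3.5) in control EAE, 9.06, 6.93, 9.4, 18.9 and 12.8 CPM with metformin and 42.1 CPM in replicate 22, above the highest healthy value in a range of 1.43 to 23.5 CPM. All metformin libraries lay above all control EAE libraries. Its change was 2.12 ± 0.56 with all 6 (adjusted p = 0.0124) and 1.58 ± 0.49 with 5 (adjusted p = 0.0353), and with 5 the call was lost without control EAE 1, 2 and 18, metformin EAE 5, 14 and 21 (adjusted p up to 0.0955). Kdm6a, the X-linked H3K27 demethylase named in the series title, was at 1.95 to 6.19 CPM (median 4.18) in control EAE and 5.55 to 8.17 CPM (median 6.88) with metformin. It changed by 0.65 ± 0.23 with all 6 (adjusted p = 0.0468) and 0.60 ± 0.24 with 5 (adjusted p = 0.0908), and with all 6 the call was lost without control EAE 1, 2, 9 and 18, metformin EAE 5, 6, 13, 14 and 22 (adjusted p up to 0.0908). Its relative Kdm6b changed by 0.49 ± 0.16 with all 6 (adjusted p = 0.0295) and 0.30 ± 0.12 with 5 (adjusted p = 0.0825), lost with all 6 without control EAE 9, metformin EAE 22 (adjusted p up to 0.0825). Of the 6 H3K27 methylation enzymes these were the 2 called with all 6. None was called with 5 by edgeR, where 2 were under an unadjusted p of 0.05, DESeq2 called 0 and limma voom 2. Kdm6a and Kdm6b with all 6 lost their calls in the fit of EAE libraries only (adjusted p up to 0.0652). Kdm6a with all 6 and Xist with 5 lost their calls without a filter on low counts (adjusted p up to 0.0745). Xist with 5 lost its call with limma voom (adjusted p = 0.0562). Kdm6a and Kdm6b with all 6 and Xist with 5 lost their calls with the length trend removed (adjusted p up to 0.111). Kdm6b changed by 0.74 with all 6, with library totals.

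Lipid carriers and storage genes were lower with metformin. Of 28 genes of lipid efflux, uptake and storage, 11 were lower and none higher in each fit, beside 12.1% and 9.84% of all genes, with list medians of -0.53 and -0.38. When library totals set the scale 9 were lower in each fit, and 2 were higher with all 6 and 0 with 5. Leaving out 1 library gave 7 to 12 lower with all 6, the fewest without control EAE replicate 9, and 10 to 11 with 5. In the fit of EAE libraries only and without a filter 7 each were lower with all 6.

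Apoe (ENSMUSG00000002985, chromosome 7, 19696109 to 19699188) was at 118000 to 206000 CPM (median 163000) in control EAE. With metformin it was at 65100, 84800, 97200, 94000 and 89400 CPM, and at 7080 CPM in replicate 22, near the healthy 1830 to 5110 CPM. The groups did not overlap with or without replicate 22. Its change was -1.19 ± 0.40 with all 6 (adjusted p = 0.0388) and -0.95 ± 0.22 with 5 (adjusted p = 0.00738), and with all 6 the call was lost without control EAE 1, 2, 9 and 18, metformin EAE 5 and 6 (adjusted p up to 0.0729). The standard error was smaller without replicate 22. Apoe with all 6 lost its call in the fit of EAE libraries only (adjusted p = 0.0673). Apoe with all 6 lost its call without a filter on low counts (adjusted p = 0.0816). Apoe with all 6 lost its call with the length trend removed (adjusted p = 0.0658).

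The neighbouring genes Apoc1, Apoc2 and Apoc4, which encode small exchangeable apolipoproteins and lie in the same cluster on chromosome 7, fell by more than Apoe on the log2 scale. Apoc4 was at 86.6 to 244 CPM (median 114) in control EAE and 9.94, 16.9, 53.6, 34.9 and 34.4 CPM with metformin, with 0.29 in replicate 22. Apoc4 changed by -2.41 ± 0.66 with all 6 (adjusted p = 0.0155) and -2.14 ± 0.44 with 5 (adjusted p = 0.00478). Apoc1 changed by -2.18 ± 0.54 with all 6 (adjusted p = 0.00906) and -1.93 ± 0.35 with 5 (adjusted p = 0.00264). For Apoc2, named after its values were seen, the change was -1.64 ± 0.51 with all 6 (adjusted p = 0.0288) and -1.38 ± 0.31 with 5 (adjusted p = 0.00729), with all 6 lost without control EAE 9, metformin EAE 5 and 6 (adjusted p up to 0.0656). Apoc2 with all 6 lost its call in the fit of EAE libraries only (adjusted p = 0.0592). Apoc2 with all 6 lost its call without a filter on low counts (adjusted p = 0.0588).

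Fabp4, a fatty acid carrier of macrophages, was at 11 to 40.6 CPM (median 17.7) in control EAE and 2.22, 1.3, 6.11, 2.72 and 5.35 CPM with metformin, with 0.0362 in replicate 22. Its groups did not overlap, and it had the largest fall of the rule for named genes with all 6, at -2.81 ± 0.61 with all 6 (adjusted p = 0.00436) and -2.54 ± 0.42 with 5 (adjusted p = 0.00157). Plin2, which coats lipid droplets, was at 276 to 436 CPM (median 327) in control EAE, 116, 162, 250, 180 and 205 CPM with metformin and 34.8 in replicate 22. Its change was -1.10 ± 0.30 with all 6 (adjusted p = 0.0151) and -0.89 ± 0.18 with 5 (adjusted p = 0.00335). Plin3 (-0.77 and -0.61), of the same family, Npc2 (-0.62 and -0.52), a lysosomal cholesterol carrier, and Hilpda (-0.51 and -0.47), an inhibitor of lipolysis, were lower in both fits, Hilpda not when library totals set the scale. Fabp5 changed by -1.21 ± 0.40 with all 6 (adjusted p = 0.0338) and -0.97 ± 0.19 with 5 (adjusted p = 0.00283), with all 6 lost without control EAE 1 and 9, metformin EAE 5, 6 and 14 (adjusted p up to 0.0693). Apod, another lipid-binding protein outside the list and named after its values were seen, was at 596 to 1210 CPM (median 789) and at 191 to 397 CPM (median 219) with metformin, and replicate 22, at 203 CPM, lay within the range of the other 5. Its change was -1.74 ± 0.29 with all 6 (adjusted p = 0.00147) and -1.69 ± 0.32 with 5 (adjusted p = 0.00291). Fabp5 with all 6 lost its call in the fit of EAE libraries only (adjusted p = 0.0774). Fabp5 with all 6 lost its call without a filter on low counts (adjusted p = 0.0662). Hilpda changed by -0.33 with all 6, with limma voom.

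Among 28 genes of disease-associated microglia, the signature that Trem2-dependent microglia take on near pathology, 8 were lower with all 6 and 9 with 5, and none was higher, beside 12.1% and 9.84% lower of all genes, with medians of -0.57 and -0.4. In the fit of EAE libraries only 3 were lower with all 6, without a filter 5, and with limma voom 14 (15 with 5). With library totals 1 was higher and 6 lower with all 6, and 1 and 8 with 5. Leaving out 1 library gave 4 to 10 lower with all 6 (4 without control EAE replicate 9) and 5 to 15 with 5 (5 without metformin replicate 5 as well). The list shares Apoe, Fabp5, Lpl and Ch25h with the lipid list.

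Cd63, a tetraspanin of late endosomes, was at 323 to 388 CPM (median 365) in control EAE, 163, 179, 271, 213 and 235 CPM with metformin and 54.9 in replicate 22. Cd63 changed by -0.96 ± 0.24 with all 6 (adjusted p = 0.00859) and -0.77 ± 0.13 with 5 (adjusted p = 0.00145). Tyrobp, the signalling adaptor of Trem2, changed by -0.63 ± 0.13 with all 6 (adjusted p = 0.0028) and -0.57 ± 0.13 with 5 (adjusted p = 0.00545). The protease Ctsz changed by -0.61 ± 0.16 with all 6 (adjusted p = 0.0108) and -0.48 ± 0.11 with 5 (adjusted p = 0.00691). Spp1, the secreted protein osteopontin, spread widely and was at 7590 to 11700 CPM (median 10200) in control EAE, 2850, 4090, 8950, 6820 and 8910 CPM with metformin and 90.8 in replicate 22. Its change (-0.91 ± 0.59, adjusted p = 0.273 with all 6, -0.65 ± 0.31, adjusted p = 0.155 with 5) did not pass the test. Lgals3 (galectin-3) was at 1100 to 1340 CPM (median 1190) in control EAE, 429, 451, 836, 718 and 921 CPM with metformin and 24.9 in replicate 22, without overlap. It changed by -1.10 ± 0.49 with all 6 (adjusted p = 0.111) and -0.85 ± 0.24 with 5 (adjusted p = 0.022), so it was called with 5 and not with all 6, and the call with 5 was lost without metformin EAE 5 and 6 (adjusted p up to 0.0654). Spp1, Ctsz and Lgals3 were named after their values were seen. Lgals3 with 5 lost its call with the length trend removed (adjusted p = 0.0558). Tyrobp changed by -0.41 with all 6, and Ctsz changed by -0.30 with 5, with library totals.

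The remaining largest falls by the rule were Cd38 (-2.76 and -2.61), an enzyme that consumes NAD, Saa3 (-2.54 and -2.28), an acute-phase protein, Cd5l (-2.47 and -2.23), a macrophage protein, Ctla2a (-2.12 and -1.90), a cathepsin inhibitor, Wnt4 (-2.06 and -1.87), a secreted ligand, Gpx3 (-2.03 and -1.77), a secreted glutathione peroxidase, and Ifitm1 (-2.0 and -1.86), an interferon-induced membrane protein. The call of Saa3 was lost without control EAE 9 and 10, metformin EAE 5, 6 and 14 (adjusted p up to 0.102) with all 6 and without control EAE 9 and 10, metformin EAE 5, 6 and 14 (adjusted p up to 0.0934) with 5. The call of Gpx3 with all 6 was lost without control EAE 9, metformin EAE 5 and 6 (adjusted p up to 0.0611). For Ifitm1 the call with 5 was lost without control EAE 10, metformin EAE 5, 6 and 13 (adjusted p up to 0.0715). Control EAE levels of Cd38 ranged over 14.8 to 94.3 CPM (median 22.6), and every metformin library, 2.54 to 9.19 CPM (median 5.56), lay below. Gas6, the bridging ligand of the phagocytic receptors Axl and Mertk, was at 325 to 492 CPM (median 412) in control EAE, 166, 237, 278, 227 and 213 CPM with metformin and 172 in replicate 22. It changed by -0.95 ± 0.13 with all 6 (adjusted p = 0.00062) and -0.89 ± 0.12 with 5 (adjusted p = 0.000507), and of 15 phagocytosis and scavenger receptor genes it alone was lower, beside Itgam (0.73 and 0.62), an integrin subunit of complement receptor 3, which was higher. Saa3 with all 6 and Saa3 with 5 lost its calls in the fit of EAE libraries only (adjusted p up to 0.0741). Saa3 and Gpx3 with all 6 and Saa3 and Ifitm1 with 5 lost their calls without a filter on low counts (adjusted p up to 0.0666). Saa3 (-1.24) with all 6 and Saa3 (-1.04) with 5 lost its calls with limma voom (adjusted p up to 0.224). Saa3 with all 6 lost its call with the title range as a covariate (adjusted p = 0.0667).

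Genes of sterol synthesis were higher with metformin, in part. Of 29 sterol and fatty acid synthesis genes, 11 were higher in each fit, and 5 were lower with all 6 and 3 with 5, with medians of 0.23 and 0.25. Of all genes 12.5% were higher and 12.1% lower with all 6, and 8.5% and 9.84% with 5. Leaving out 1 library gave 9 to 12 higher with all 6 and 6 to 12 with 5, the fewest without metformin replicate 5 as well. When library totals set the scale, 17 were higher and 0 lower with all 6, and 16 and 0 with 5. Of all genes 28.1% were then higher and 3.68% lower, and 20% and 2.74% with 5. In the fit of EAE libraries only 1 was lower in each fit.

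Sqle, squalene epoxidase (ENSMUSG00000022351, chromosome 15, 59315077 to 59331192), was at 3.28 to 5.64 CPM (median 4.64) in control EAE and at 11.1, 7.77, 7.42, 9.27 and 9.94 CPM with metformin, with 11.2 in replicate 22. The groups did not overlap, and its change was 1.02 ± 0.16 with all 6 (adjusted p = 0.00104) and 0.97 ± 0.17 with 5 (adjusted p = 0.00145).

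Stard4, a cytosolic sterol carrier, changed by 0.95 ± 0.14 with all 6 (adjusted p = 0.000841) and 0.91 ± 0.15 with 5 (adjusted p = 0.00123). Also higher in both fits were Scd1 (0.66 and 0.48), which makes monounsaturated fatty acids, and Sc5d (0.37 and 0.38), a late sterol desaturase. Cyp51 (0.35 and 0.39), the lanosterol demethylase, lost its call without control EAE 9 and 18, metformin EAE 5 (adjusted p up to 0.0879) with all 6 and without control EAE 9, metformin EAE 5 (adjusted p up to 0.108) with 5. Hmgcs1, which makes HMG-CoA, was at 22.8 to 48.2 CPM (median 35.8) in control EAE, 49.2, 46.3, 43, 44.1 and 46.2 CPM with metformin and 37.5 in replicate 22. Its change was 0.31 ± 0.12 with all 6 (adjusted p = 0.0648) and 0.36 ± 0.12 with 5 (adjusted p = 0.0476), so it was called with 5 only, and that call was lost without control EAE 1, 2, 9 and 18, metformin EAE 5, 6, 13, 14 and 21 (adjusted p up to 0.116). Cyp51 with all 6 and Cyp51 and Hmgcs1 with 5 lost their calls in the fit of EAE libraries only (adjusted p up to 0.111). Hmgcs1 with 5 lost its call without a filter on low counts (adjusted p = 0.0555). Cyp51 with all 6 and Hmgcs1 with 5 lost their calls with the length trend removed (adjusted p up to 0.0758). Sc5d changed by 0.60 and Cyp51 by 0.57 with all 6, with library totals.

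The lower members were Mvk (-0.40 and -0.33), Pmvk (-0.43 and -0.35) and Tm7sf2 (-0.48 and -0.47) in both fits, and another 2 with all 6. Mvk and Pmvk, kinases of mevalonate and phosphomevalonate (Pmvk at -0.23 without control EAE 10 with 5), lost their calls with 5 without control EAE 1, 9 and 10, metformin EAE 5, 6, 13 and 21 (adjusted p up to 0.099) and control EAE 1 and 10, metformin EAE 5, 6, 13 and 14 (adjusted p up to 0.0901). All lower calls were lost with library totals. Apart from Sqle and Stard4 the sterol genes here were named after their values were seen. Mvk and Pmvk with all 6 and Mvk and Pmvk with 5 lost their calls in the fit of EAE libraries only (adjusted p up to 0.0965). Mvk and Pmvk with 5 lost their calls without a filter on low counts (adjusted p up to 0.0751). Mvk (-0.23) with all 6 and Mvk (-0.20) and Pmvk (-0.20) with 5 lost their calls with limma voom (adjusted p up to 0.12). Pmvk changed by -0.22 with all 6, with limma voom. Pmvk with all 6 and Mvk and Pmvk (-0.22) with 5 lost their calls with the length trend removed (adjusted p up to 0.15).

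Sterol synthesis genes are known targets of the SREBP transcription factors, which bind sterol response elements. Promoter sequences were at hand for 21 of the 31 listed genes, and 2 of these, Hmgcs1 and Hsd17b7, held the sterol response motif named with the sequence. The promoter of Hmgcs1 is shown because it was called with 5 libraries. The 250 bases before its start (RefSeq, GRCm38.p6, chr13:119690101-119690350, plus strand) hold 1 match to TCNCNCCAC, searched on both strands and shown in capitals, whose first base lies 137 bases before the start. Of 32851 promoters of the same length 5.41% hold this motif, and a match is a description, not a site.
Hmgcs1: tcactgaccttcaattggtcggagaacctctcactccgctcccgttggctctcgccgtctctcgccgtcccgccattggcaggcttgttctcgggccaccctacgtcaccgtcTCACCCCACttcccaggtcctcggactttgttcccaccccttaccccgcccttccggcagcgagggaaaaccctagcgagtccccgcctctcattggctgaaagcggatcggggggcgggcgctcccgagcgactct

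Genes that glucocorticoid hormones are known to induce were lower with metformin. Of 11 tested, 8 were lower with all 6 and 7 with 5, beside 12.1% and 9.84% lower of all genes. None was higher, and the medians were -0.65 and -0.63. With library totals 5 were lower in each fit, and leaving out 1 library gave 6 to 9 with all 6 and 6 to 8 with 5. The list holds genes with other inducers as well, such as the stress gene Ddit4 and the NF-kB inhibitor Nfkbia. Fkbp5, a common marker of glucocorticoid action, was listed at 0 in all libraries.

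The metallothioneins Mt1 and Mt2, small proteins that bind zinc and copper, are neighbours on chromosome 8. Mt1 was at 202 to 331 CPM (median 250) in control EAE, 124, 122, 154, 134 and 148 CPM with metformin and 83.5 in replicate 22. Its change was -1.05 ± 0.16 with all 6 (adjusted p = 0.00077) and -0.95 ± 0.14 with 5 (adjusted p = 0.000707). Mt2 was at 41.9 to 103 CPM (median 59.8), 19.3, 22, 40.4, 29.4 and 32.8 CPM with metformin and 18.4 in replicate 22. Mt2 changed by -1.35 ± 0.23 with all 6 (adjusted p = 0.00152) and -1.26 ± 0.24 with 5 (adjusted p = 0.00282). For both genes every metformin library was below every control EAE library.

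Klf9, a transcription factor, was at 20.7 to 49.8 CPM (median 28.9) in control EAE and 13.6, 14, 13.9, 13.9 and 20.1 CPM with metformin, with 16.7 in replicate 22, and healthy libraries were at 7.41 to 13.8 CPM. Its change was -1.0 ± 0.18 with all 6 (adjusted p = 0.0019) and -1.03 ± 0.20 with 5 (adjusted p = 0.00254). Tsc22d3, also called Gilz, was at 96.7 to 234 CPM (median 145) in control EAE, 84.1, 90.6, 83.8, 74 and 60.8 CPM with metformin and 109 in replicate 22. Here replicate 22 lay above the other 5 and inside the control EAE range, and the change was larger without it, at -0.92 ± 0.19 with all 6 (adjusted p = 0.00303) and -1.01 ± 0.19 with 5 (adjusted p = 0.0028). Ddit4, an inhibitor of mTORC1, showed the same order, with 16.4 to 38 CPM (median 20.6) in control EAE, 10.8, 13.9, 12.6, 11.5 and 8.98 CPM with metformin and 19.3 in replicate 22. Ddit4 changed by -0.95 ± 0.21 with all 6 (adjusted p = 0.0042) and -1.10 ± 0.20 with 5 (adjusted p = 0.0022). These members other than Mt1 and Mt2 were named after their values were seen.

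The promoters of Mt1 and Mt2 are shown since both genes fell and metal response elements, bound by the factor Mtf1, are known in them. The motif TGCACNC or TGCGCNC, their core, was searched on both strands in the 250 bases before the start, and matches are in capitals. It is found in 21.4% of 32851 promoters. Mt1 (chr8:94178839-94179088, plus strand) held 1 match, with its first base 23 bases before the start, and Mt2 (chr8:94172368-94172617, plus strand) held 3, at 223, 128 and 50 bases.
Mt1: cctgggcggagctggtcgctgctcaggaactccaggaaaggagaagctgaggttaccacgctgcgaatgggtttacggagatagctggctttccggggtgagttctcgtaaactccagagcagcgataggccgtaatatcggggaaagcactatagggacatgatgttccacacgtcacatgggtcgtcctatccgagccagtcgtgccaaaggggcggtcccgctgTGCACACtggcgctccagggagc
Mt2: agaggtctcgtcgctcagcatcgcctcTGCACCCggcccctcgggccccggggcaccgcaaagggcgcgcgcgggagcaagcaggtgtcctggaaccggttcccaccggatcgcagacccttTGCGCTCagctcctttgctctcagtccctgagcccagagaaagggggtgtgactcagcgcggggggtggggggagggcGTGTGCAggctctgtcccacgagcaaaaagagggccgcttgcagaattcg

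Targets of the integrated stress response, the program that Atf4 drives when translation is limited by amino acid lack or mitochondrial stress, were lower with metformin on balance. Of 29 tested, 11 were lower and 2 higher with all 6, and 9 and 2 with 5, with medians of -0.28 and -0.24. Of all genes 12.1% were lower and 12.5% higher with all 6, and 9.84% and 8.5% with 5. With library totals 7 were lower and 4 higher with all 6, and 5 and 2 with 5. With 1 library left out 9 to 13 were lower with all 6 and 7 to 10 with 5.

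Atf4 itself was at 338 to 456 CPM (median 359) in control EAE and 303, 231, 279, 300 and 292 CPM with metformin, with 235 in replicate 22. Atf4 changed by -0.47 ± 0.09 with all 6 (adjusted p = 0.00255) and -0.43 ± 0.09 with 5 (adjusted p = 0.00498). With library totals its call with 5 was lost. Atf5, a related factor, was at 118 to 175 CPM (median 137) in control EAE, 84.3, 80.7, 82.7, 92.7 and 94.4 CPM with metformin and 51.3 in replicate 22. The groups did not overlap, and its change was -0.81 ± 0.12 with all 6 (adjusted p = 0.000841) and -0.70 ± 0.09 with 5 (adjusted p = 0.000493). Psat1, an enzyme of serine synthesis, was at 218 to 313 CPM (median 247) in control EAE, 108, 144, 182, 179 and 178 CPM with metformin and 68.7 in replicate 22. Psat1 changed by -0.84 ± 0.18 with all 6 (adjusted p = 0.00323) and -0.69 ± 0.12 with 5 (adjusted p = 0.00185). Atf4 changed by -0.25 with all 6, with library totals.

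Sars (-0.48 and -0.42), the seryl-tRNA synthetase, was lower in both fits. Gdf15, a secreted stress hormone known to rise in blood with metformin, was at 2.76 to 7.87 CPM (median 4.41) in control EAE and 1.39, 1.13, 2.69, 1.57 and 1.38 CPM with metformin, with 0.29 in replicate 22. Its change was -1.82 ± 0.52 with all 6 (adjusted p = 0.0172) and -1.60 ± 0.47 with 5 (adjusted p = 0.0257), and the call with 5 was lost without control EAE 1 and 9, metformin EAE 5, 6, 14 and 21 (adjusted p up to 0.0699). Ddit3 (-0.54 and -0.41), which encodes CHOP, was lower in both fits, and with 5 not when library totals set the scale. The higher members were Slc7a5 (0.47 and 0.35), an amino acid transporter, and Aldh1l2 (0.83 and 0.59), a mitochondrial folate enzyme. With 5 their calls were lost without control EAE 9 and 18, metformin EAE 5, 6, 14 and 21 (adjusted p up to 0.0941) and control EAE 1, 9 and 17, metformin EAE 5, 14 and 21 (adjusted p up to 0.121). Slc7a5 and Aldh1l2 with 5 lost their calls in the fit of EAE libraries only (adjusted p up to 0.099). Gdf15 and Aldh1l2 with 5 lost their calls without a filter on low counts (adjusted p up to 0.0515). Aldh1l2 (0.47) with all 6 and Aldh1l2 with 5 lost its calls with limma voom (adjusted p up to 0.0854). Ddit3 and Aldh1l2 with 5 lost their calls with the length trend removed (adjusted p up to 0.108). Sars changed by -0.26, Ddit3 by -0.32 and Slc7a5 by 0.71 with all 6, and Sars changed by -0.25 and Slc7a5 by 0.53 with 5, with library totals.

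A pair of lower members is shown with their promoters because both hold the motif TGATGNAAC or TGATGNAAT, the form of known sites of Atf4 with C/EBP partners, within 250 bases before the start. It is found in 1.52% of 32851 promoters, both strands searched, and in 6 of the 26 list members whose promoter was at hand. Asns, asparagine synthetase, changed by -0.58 ± 0.15 with all 6 (adjusted p = 0.0108) and -0.48 ± 0.14 with 5 (adjusted p = 0.0212), with 5 lost without metformin EAE 5, 6 and 13 (adjusted p up to 0.0604). Nupr1, a stress-induced chromatin protein, changed by -0.60 ± 0.15 with all 6 (adjusted p = 0.0077) and -0.56 ± 0.16 with 5 (adjusted p = 0.0177). Neither call held when library totals set the scale. In Asns (chr6:7693210-7693459, minus strand) the match begins 23 bases before the start, and in Nupr1 (chr7:126625471-126625720, minus strand) 111 bases before it, on the opposite strand. Both were named after their values were seen. Nupr1 changed by -0.39 with all 6, with limma voom. Asns with 5 lost its call with the length trend removed (adjusted p = 0.0558).
Asns: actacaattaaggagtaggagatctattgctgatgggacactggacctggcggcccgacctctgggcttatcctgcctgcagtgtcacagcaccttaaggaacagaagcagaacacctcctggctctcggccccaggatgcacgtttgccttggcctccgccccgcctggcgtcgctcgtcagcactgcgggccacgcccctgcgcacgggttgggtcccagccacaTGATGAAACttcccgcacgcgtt
Nupr1: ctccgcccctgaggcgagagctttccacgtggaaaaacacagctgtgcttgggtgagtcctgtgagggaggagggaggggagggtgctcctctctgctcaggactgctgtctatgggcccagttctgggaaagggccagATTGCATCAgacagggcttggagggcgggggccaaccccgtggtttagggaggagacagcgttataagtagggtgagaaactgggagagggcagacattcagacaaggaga

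Nuclear genes of the respiratory chain were lower with metformin. Of 35 genes of complex I, the enzyme that metformin inhibits, 26 were lower with all 6 and 23 with 5, with medians of -0.46 and -0.42. Of 34 genes of complexes II to V, 25 and 22 were lower, with medians of -0.52 and -0.47, and no gene of either list was higher. The shares of all genes that were lower were 12.1% and 9.84%. With library totals, where 3.68% and 2.74% of all genes were lower, 7 and 4 genes of complex I were lower. Of complexes II to V 11 and 7 were then lower, and 1 was higher with all 6. With 1 library left out 23 to 28 of complex I were lower with all 6 and 17 to 25 with 5.

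Ndufa2, an accessory subunit of complex I, was at 47.3 to 96.5 CPM (median 55.3) in control EAE, 38.6, 33.5, 40.2, 36.4 and 36 CPM with metformin and 27.8 in replicate 22. It changed by -0.79 ± 0.15 with all 6 (adjusted p = 0.002) and -0.72 ± 0.15 with 5 (adjusted p = 0.00355), and the groups did not overlap. Ndufb10, another accessory subunit, changed by -0.46 ± 0.08 with all 6 (adjusted p = 0.00141) and -0.46 ± 0.08 with 5 (adjusted p = 0.00185), a call lost with library totals. Cox4i1, a subunit of cytochrome oxidase, was at 209 to 338 CPM (median 239) in control EAE and 161, 151, 173, 169 and 159 CPM with metformin, with 117 in replicate 22. Its change was -0.71 ± 0.12 with all 6 (adjusted p = 0.00138) and -0.64 ± 0.11 with 5 (adjusted p = 0.00185). Cox7a2 (-0.69 ± 0.13, adjusted p = 0.002 with all 6, -0.63 ± 0.13, adjusted p = 0.00349 with 5), of the same complex, was lower as well. Ndufs1, the large core subunit of complex I, was among those that did not pass, at 0.04 ± 0.09 with all 6 (adjusted p = 0.763) and 0.03 ± 0.09 with 5 (adjusted p = 0.841), and was named after its values were seen. Ndufa2 changed by -0.50 with all 6, with limma voom.

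Genes of ribosomal proteins and proteasome subunits moved the same way, beside 12.1% and 9.84% lower of all genes. Of 72 cytosolic ribosomal protein genes 31 were lower with all 6 and 26 with 5 (medians -0.36 and -0.31), of 71 mitochondrial ribosomal protein genes 43 and 41 (-0.37 and -0.34), and of 38 proteasome subunit genes 15 and 11 (-0.28 and -0.22), with none higher. With the EAE libraries only and 5 metformin libraries 16 cytosolic ribosomal protein genes and 5 proteasome genes were lower. With library totals 9 and 3, 16 and 7, and 4 and 2 were lower, and 2 and 1 mitochondrial ribosomal protein genes and 1 and 0 proteasome genes were higher. Examples were the ribosomal proteins Rpl8 (-0.44 and -0.41) and Rplp2 (-0.74 and -0.72), the mitochondrial ribosomal proteins Mrps24 (-0.54 and -0.51) and Mrpl27 (-0.69 and -0.59), and the proteasome subunit Psmd4 (-0.56 and -0.54). Ribosomal protein genes have near-identical copies, so their counts are uncertain. Rpl22, the ribosomal protein that carries the tag, changed by -0.40 ± 0.08 with all 6 (adjusted p = 0.00303) and -0.36 ± 0.08 with 5 (adjusted p = 0.00636), a call lost when library totals set the scale. Rpl8 (-0.22) with all 6 and Rpl8 (-0.24) with 5 lost its calls with library totals (adjusted p up to 0.0869). Mrps24 changed by -0.32 and Psmd4 by -0.35 with all 6, with library totals.

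The change moved with gene length. Across 16497 genes with a length the Spearman correlation of log2 change with exon length was 0.266, and 0.254 across 16629 genes with 5 libraries, with no test since genes are not independent. Of the 20% of genes with the shortest exon length 6.54% were higher and 21.2% lower, and of the 20% with the longest 25.4% were higher and 2.64% lower. The genes of complex I have a median exon length of 1495 bases, where the shortest 20% end at 1815. When a trend of level on length was removed from each library, 1527 genes were higher and 1794 lower (984 and 1299 with 5). In that fit 22 and 18 genes of complex I, 21 and 17 of complexes II to V, 25 and 17 cytosolic and 36 and 29 mitochondrial ribosomal protein genes and 10 and 6 proteasome genes were lower.

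**Figure D4:**
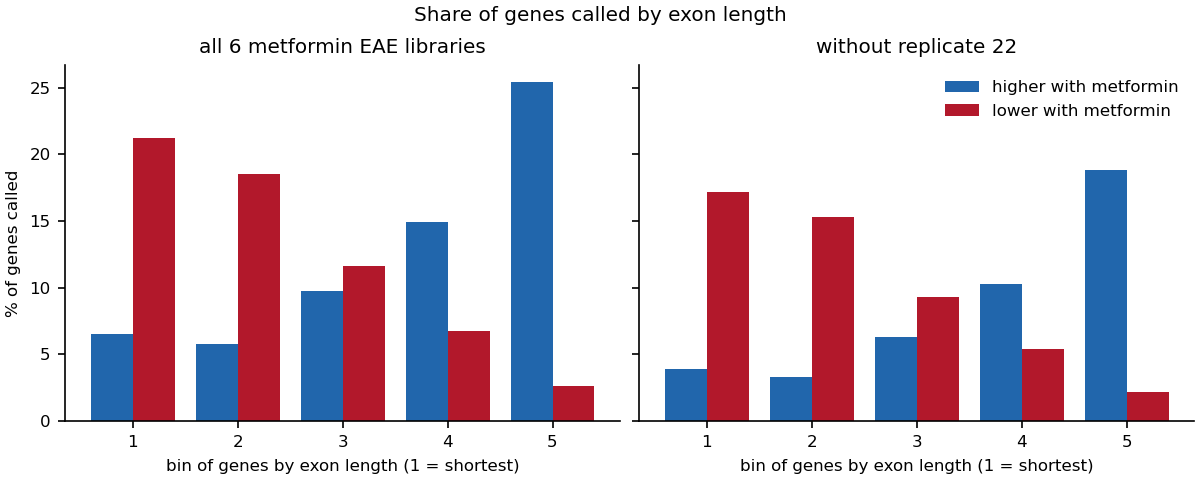
Share of genes called higher (blue) or lower (red) with metformin in 5 bins of equal gene number by exon length, with all 6 metformin libraries and with 5. The share of higher genes is 6.54% in the shortest and 25.4% in the longest bin with all 6, and the share of lower genes 21.2% and 2.64%.

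Mitochondrially encoded genes went the other way, with 5 of 7 higher with all 6 and 1 of 7 with 5. Of all genes 12.5% and 8.5% were higher, and the medians of the list were 1.16 and 0.74. With the title range as a covariate 7 of 7 were higher in each fit, and with the EAE libraries only 4 with 5. Without a filter 2 were higher with all 6 and 0 with 5, with limma voom 1 with all 6, and with library totals 7 and 3. mt-Co1, a core subunit of cytochrome oxidase, was at 234 to 599 CPM (median 448) in control EAE, 621, 592, 642, 753 and 836 CPM with metformin and 1760 in replicate 22. Its change was 1.07 ± 0.30 with all 6 (adjusted p = 0.017) and 0.74 ± 0.25 with 5 (adjusted p = 0.0478), and the call with 5 was lost without control EAE 1, 2, 9, 10 and 18, metformin EAE 5, 6, 13, 14 and 21 (adjusted p up to 0.104). mt-Nd5 (1.28 and 0.82), a subunit of complex I, lost its call with all 6 without metformin EAE 22 (adjusted p = 0.0638), and the other 3 called with all 6 were not called with 5. Of the 13 listed genes 4, mt-Co2, mt-Co3, mt-Atp6 and mt-Atp8, were at 0 in all libraries. mt-Co1 with 5 lost its call without a filter on low counts (adjusted p = 0.088). mt-Nd5 (0.72) with all 6 lost its call with limma voom (adjusted p = 0.0879). mt-Co1 changed by 0.58 with all 6, with limma voom.

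Lysosomal and antioxidant genes were lower. Of 27 lysosome and autophagy genes 14 were lower with all 6 and 11 with 5, beside 12.1% and 9.84% of all genes. None was higher, and the medians were -0.39 and -0.28. Leaving out 1 library gave 9 to 18 and 5 to 17, the fewest without control EAE replicate 1 and without metformin replicate 6 as well. With library totals 5 were lower in each fit, and 2 and 3 higher. In the fit of EAE libraries only 5 were lower with all 6 and 5 with 5. With 5, no filter gave 7 and limma voom 18. Ctsk, a collagen-degrading cathepsin, was at 9.58 to 19.8 CPM (median 12.6) in control EAE, 4.38, 7.04, 5.94, 5.42 and 6.17 CPM with metformin and 1.27 in replicate 22. Ctsk changed by -1.42 ± 0.29 with all 6 (adjusted p = 0.00308) and -1.21 ± 0.20 with 5 (adjusted p = 0.00139). Hexa (-0.48 ± 0.12, adjusted p = 0.00654 with all 6, -0.42 ± 0.11, adjusted p = 0.0138 with 5), a hexosaminidase subunit, was lower too. Hexa with 5 lost its call with the length trend removed (adjusted p = 0.0767). Hexa changed by -0.26 with all 6, and Hexa changed by -0.24 with 5, with library totals.

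Of 24 oxidative stress genes 11 were lower and 1 higher with all 6, and 9 and 1 with 5, with medians of -0.39 and -0.3. Of all genes 12.1% were lower and 12.5% higher with all 6, and 9.84% and 8.5% with 5. With library totals 5 were lower and 4 higher in each fit. With all 6, the EAE libraries only and the removal of the length trend each gave 7 lower. Prdx6, a peroxiredoxin that reduces lipid peroxides, was at 182 to 240 CPM (median 206) in control EAE, 118, 126, 145, 139 and 142 CPM with metformin and 97.4 in replicate 22. It changed by -0.70 ± 0.10 with all 6 (adjusted p = 0.00062) and -0.64 ± 0.09 with 5 (adjusted p = 0.000493). Ftl1, the ferritin light chain, changed by -0.90 ± 0.19 with all 6 (adjusted p = 0.00304) and -0.76 ± 0.15 with 5 (adjusted p = 0.00264), and Cyba, a subunit of the phagocyte NADPH oxidase named after its values were seen, by -0.73 ± 0.16 with all 6 (adjusted p = 0.00394) and -0.60 ± 0.12 with 5 (adjusted p = 0.00311). The higher gene was Gclc (0.41 and 0.37), the rate-limiting enzyme of glutathione synthesis, whose call with 5 was lost without metformin EAE 5 and 6 (adjusted p up to 0.0639). Gclc with 5 lost its call in the fit of EAE libraries only (adjusted p = 0.0588). Gclc changed by 0.64 with all 6, with library totals.

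**Figure D5:**
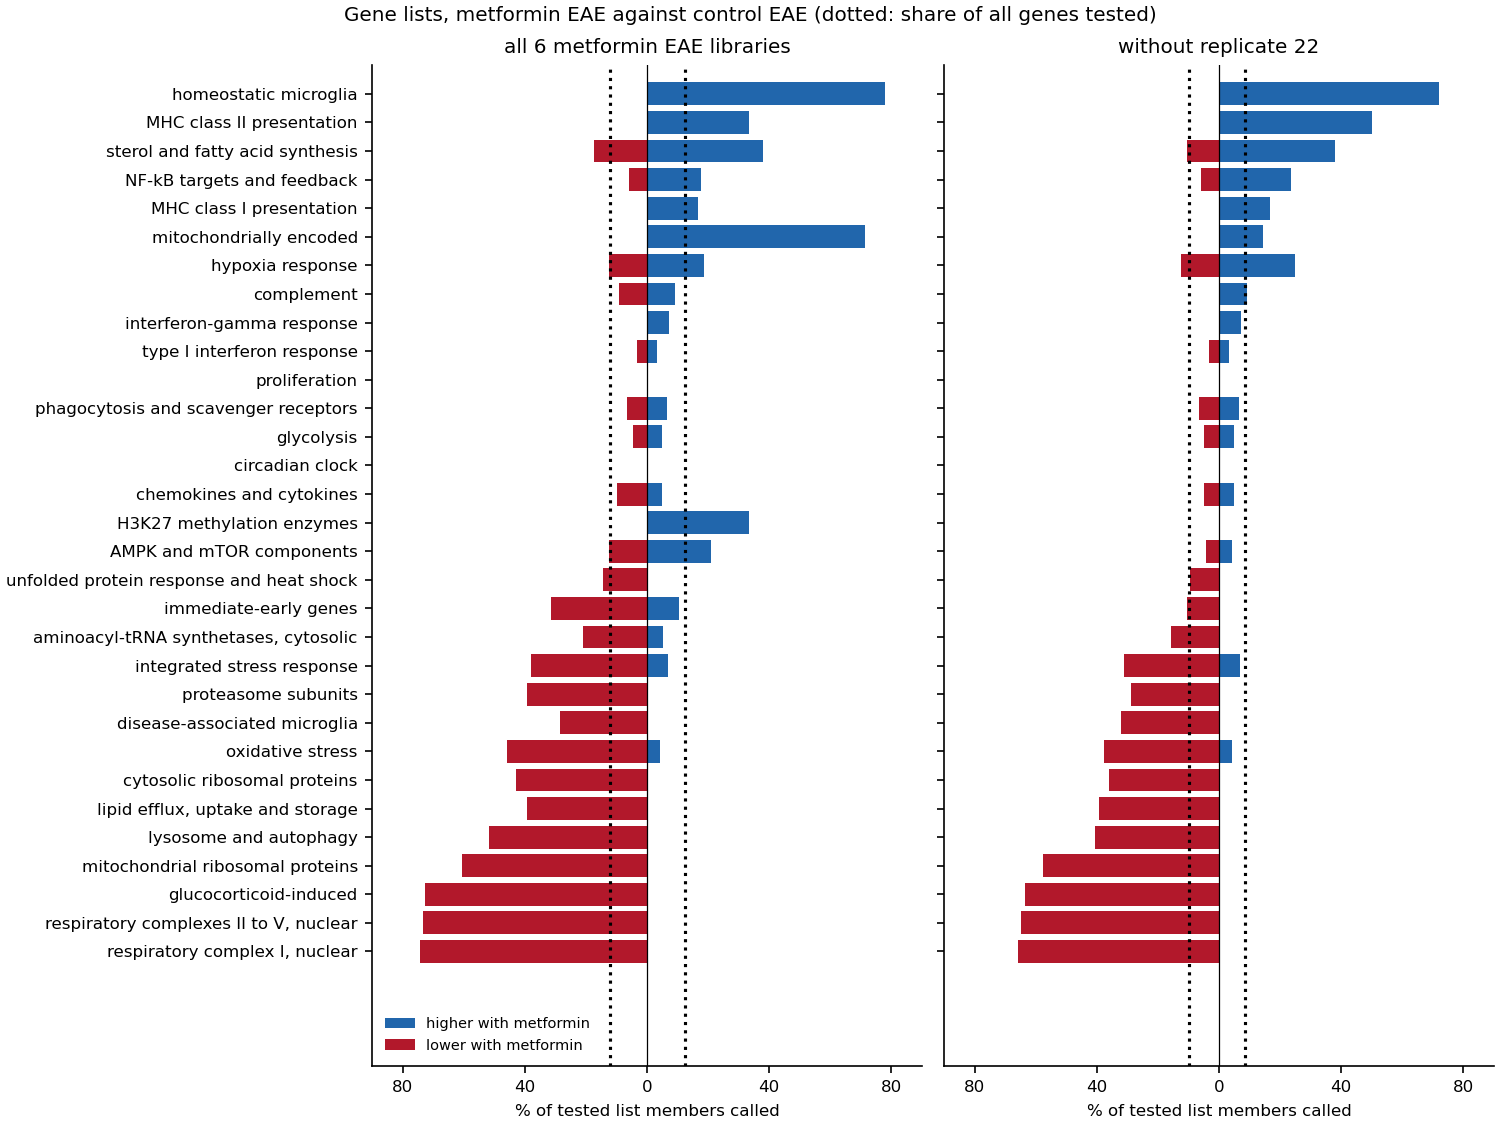
Share of tested members of each pathway list called higher (blue, to the right) or lower (red, to the left) with metformin, with all 6 metformin libraries and with 5; dotted lines mark the shares over all genes (12.5% higher and 12.1% lower, 8.5% and 9.84% with 5). Homeostatic genes reach far to the right, with 14 of 18 higher, and the respiratory chain far to the left, with 26 of 35 lower in complex I.

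Most interferon response genes did not pass the test. Of 30 type I interferon response genes 1 was higher, the RNA sensor Ddx58 (0.38 and 0.36), and 1 lower, the virus-tethering protein Bst2 (-0.67 and -0.57), in each fit. With 5 these calls were lost without control EAE 1 and 2, metformin EAE 5, 6 and 14 (adjusted p up to 0.0912) and control EAE 9, 10 and 18, metformin EAE 5, 6, 13 and 14 (adjusted p up to 0.113). Of 14 interferon-gamma response genes 1 was higher, the adhesion molecule Icam1 (0.35 and 0.40), with calls lost without control EAE 2 and 9, metformin EAE 5, 6, 13, 14 and 21 (adjusted p up to 0.0635) and metformin EAE 6, 14 and 21 (adjusted p up to 0.0523). The change of Bst2 with 5 was -0.35 without control EAE 10. In the main fits the shares of the type I list lie below those of all genes, with medians of -0.1 and -0.03. For the interferon-gamma list, 1 call among 14 genes cannot be told from the 12.5% and 8.5% of all genes. Its medians were 0.3 and 0.42, where those of all genes were 0.01 and -0.002. Leaving out 1 library gave 0 to 3 higher in this list in each fit. Without control EAE replicate 10 there were 3 in each fit, beside 12.9% and 10.3% of all genes. Bst2 and Icam1 with all 6 and Ddx58, Bst2 and Icam1 with 5 lost their calls in the fit of EAE libraries only (adjusted p up to 0.0926). Icam1 with all 6 and Bst2 with 5 lost their calls without a filter on low counts (adjusted p up to 0.0658). Bst2 (-0.35) with 5 lost its call with limma voom (adjusted p = 0.0554). Bst2 changed by -0.39 with all 6, with limma voom. Ddx58 (0.24) and Icam1 with all 6 and Ddx58 and Bst2 with 5 lost their calls with the length trend removed (adjusted p up to 0.141). Bst2 with all 6 and Bst2 with 5 lost its calls with library totals (adjusted p up to 0.152). Ddx58 changed by 0.60 and Icam1 by 0.58 with all 6, with library totals.

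The chemokine Cxcl9, induced by interferon-gamma, was at 33.3 to 162 CPM (median 86.7) in control EAE, 79.2, 126, 224, 131 and 386 CPM with metformin and 42.3 in replicate 22, with healthy libraries at 0.496 to 1.36 CPM. Its groups overlapped, and it changed by 0.90 ± 0.49 with all 6 (adjusted p = 0.187) and 1.10 ± 0.45 with 5 (adjusted p = 0.103). Cd74 (ENSMUSG00000024610, chromosome 18, 60803848 to 60812652) was at 4340 to 9330 CPM (median 6180) in control EAE and 4120, 8020, 12800, 7160 and 11300 CPM with metformin, and its change was 0.20 ± 0.40 with all 6 (adjusted p = 0.752) and 0.43 ± 0.24 with 5 (adjusted p = 0.233). Ciita, the class II transactivator, changed by 1.22 ± 0.49 with all 6 (adjusted p = 0.079) and 1.43 ± 0.43 with 5 (adjusted p = 0.0294), and with 5 the call was lost without control EAE 1, 2 and 10, metformin EAE 21 (adjusted p up to 0.121). Without replicate 21 its change with 5 was 0.88. Replicate 21 had its highest level, at 57 CPM, and replicate 22 had 4.78 CPM. Of 6 class II presentation genes 2 were higher with all 6 and 3 with 5, with medians of 0.31 and 0.45, beside 12.5% and 8.5% of all genes, and limma voom called 1 with 5. The 5 H2 genes of class II on the list were at 0 in all libraries. The co-stimulators Cd86 and Cd80 were higher, Cd86 at 122 to 162 CPM (median 151) in control EAE, 206, 217, 182, 200 and 203 CPM with metformin and 177 in replicate 22. Cd86 changed by 0.43 ± 0.08 with all 6 (adjusted p = 0.00243) and 0.46 ± 0.08 with 5 (adjusted p = 0.00208) and Cd80 by 0.65 ± 0.17 with all 6 (adjusted p = 0.00966) and 0.57 ± 0.17 with 5 (adjusted p = 0.0243), the latter with 5 lost without control EAE 1, metformin EAE 5 and 13 (adjusted p up to 0.098). Of 6 class I presentation genes the peptide trimmer Erap1 (0.52 ± 0.13, adjusted p = 0.0082 with all 6, 0.52 ± 0.14, adjusted p = 0.0131 with 5) was higher. Cxcl9, Cd74 and Ciita were named after their values were seen. Cd80 with 5 lost its call in the fit of EAE libraries only (adjusted p = 0.0708). Ciita with 5 lost its call without a filter on low counts (adjusted p = 0.0641). Ciita (0.91) and Cd80 (0.37) with 5 lost their calls with limma voom (adjusted p up to 0.0679). Cd80 changed by 0.40 with all 6, with limma voom. Ciita with 5 lost its call with the length trend removed (adjusted p = 0.0548). Cd86 changed by 0.65 with all 6, with library totals.

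Within the NF-kB list 3 of 17 genes were higher with all 6 and 4 with 5, beside 12.5% and 8.5% of all genes. With limma voom and with library totals 6 were higher with all 6, and 2 with 5 when the length trend was removed. In each fit 1 was lower, the inhibitor Nfkbia (-0.59 and -0.56), a call lost with library totals. Nfkbie, which encodes the inhibitor IkB-epsilon, was at 24.1 to 34 CPM (median 31.9) in control EAE, 57.5, 45.1, 41.4, 45.5 and 44.6 CPM with metformin and 53.9 in replicate 22. Nfkbie changed by 0.67 ± 0.11 with all 6 (adjusted p = 0.00104) and 0.64 ± 0.11 with 5 (adjusted p = 0.00145). Birc3, an inhibitor of apoptosis, changed by 0.56 ± 0.10 with all 6 (adjusted p = 0.00145) and 0.57 ± 0.10 with 5 (adjusted p = 0.00185), with replicate 21 above the rest of its group. The subunit gene Nfkb1 (0.44 and 0.42) was higher in both fits. Nfkb1 and Nfkbia were named after their values were seen. Nfkb1 (0.19) with all 6 and Nfkb1 (0.21) with 5 lost its calls with the length trend removed (adjusted p up to 0.251). Nfkb1 changed by 0.68 with all 6, with library totals.

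Among 20 chemokine and cytokine genes tested (21 with 5), Il1a (0.47 and 0.54) was higher, and Cxcl14 (-0.98 and -0.78) and with all 6 Osm (-0.44 and -0.32) lower. With all 6 the call of Il1a was lost without control EAE 1, 2 and 10, metformin EAE 5, 6, 14 and 21 (adjusted p up to 0.0681). That of Cxcl14 was lost without control EAE 1 and 2, metformin EAE 6 and 14 (adjusted p up to 0.0821) with all 6 and without control EAE 1 and 2, metformin EAE 5, 6 and 14 (adjusted p up to 0.0756) with 5. That of Osm was lost without control EAE 1, 2 and 18, metformin EAE 6, 21 and 22 (adjusted p up to 0.066). Il1b, interleukin-1 beta, was at 3.54 to 13.1 CPM (median 4.49) in control EAE and 14, 6.95, 4.87, 11.5 and 12.8 CPM with metformin, with 3.55 in replicate 22, and its change (0.56 ± 0.37, adjusted p = 0.28 with all 6, 0.73 ± 0.36, adjusted p = 0.167 with 5) did not pass. Tnf was listed at 0 in every library. Of 29 proliferation genes edgeR called none in either fit, with E2f1 (-0.61 ± 0.24, adjusted p = 0.0699 with all 6, -0.45 ± 0.20, adjusted p = 0.124 with 5) and Stmn1 (-0.62 ± 0.26, adjusted p = 0.0846 with all 6, -0.54 ± 0.27, adjusted p = 0.176 with 5) at the smallest p. Under an unadjusted p of 0.05 were 2 with all 6 and 1 with 5, DESeq2 called 2 and 0, and limma voom 0 and 1. Il1a, Cxcl14 and Osm with all 6 and Cxcl14 with 5 lost their calls in the fit of EAE libraries only (adjusted p up to 0.0696). Cxcl14 with all 6 and Cxcl14 with 5 lost its calls without a filter on low counts (adjusted p up to 0.0645). Cxcl14 and Osm with all 6 and Cxcl14 with 5 lost their calls with the length trend removed (adjusted p up to 0.109). Osm (-0.23) with all 6 lost its call with library totals (adjusted p = 0.14).

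Immediate-early genes, the fast responders to stimuli, went both ways with all 6, where 2 of 19 were higher and 6 lower, and 0 and 2 with 5. For this and the next lists, the shares of all genes in the main fits were 12.5% higher and 12.1% lower with all 6. With 5 they were 8.5% and 9.84%. Leaving out 1 library gave 2 to 6 lower with all 6 and 1 to 6 with 5. With all 6, 2 were lower with the EAE libraries only and 3 each without a filter and with the length trend removed, and with 5 DESeq2 gave 4 and limma voom 7. With library totals 2 and 3 were higher and 1 lower in each fit. Ier2 (-0.73 ± 0.19, adjusted p = 0.00832 with all 6, -0.58 ± 0.12, adjusted p = 0.00432 with 5) and Klf4 (-0.66 ± 0.19, adjusted p = 0.0163 with all 6, -0.59 ± 0.19, adjusted p = 0.0365 with 5) were lower in both fits. With 5 the call of Klf4 was lost without control EAE 1, 2 and 17, metformin EAE 5, 6, 13 and 14 (adjusted p up to 0.0955), and library totals ended it in both fits. Of 21 unfolded protein response and heat shock genes 3 and 2 were lower, near the shares of all genes. Among them were the small heat shock protein Hspb1 (-1.25 and -1.23) and the mitochondrial co-chaperone Hspe1 (-0.55 and -0.43). With 5 Hspb1 was lost without metformin EAE 5 (adjusted p = 0.0515), and library totals ended the call of Hspe1 in both fits. Of 19 cytosolic aminoacyl-tRNA synthetases 4 and 3 were lower, led by Farsb (-0.67 and -0.61) and Sars, and 1 was higher with all 6. The EAE libraries only gave 2 lower with all 6, and library totals 1 lower in each fit and 2 and 1 higher. With 5 Farsb was lost without control EAE 10, metformin EAE 5, 6, 14 and 21 (adjusted p up to 0.0871), and library totals ended its call in both fits. Of 11 complement genes Itgam was higher in both fits, and C1qa (-0.34 and -0.27) lower with all 6, lost without control EAE 1, 2, 9, 10 and 18, metformin EAE 5, 6, 14 and 22 (adjusted p up to 0.0983). C1qa with all 6 and Klf4 and Farsb with 5 lost their calls in the fit of EAE libraries only (adjusted p up to 0.114). C1qa with all 6 and Farsb with 5 lost their calls without a filter on low counts (adjusted p up to 0.0633). C1qa with all 6 lost its call with limma voom (adjusted p = 0.0627). Hspb1 changed by -0.78 with 5, with limma voom. C1qa (-0.21) with all 6 and Klf4 and Farsb with 5 lost their calls with the length trend removed (adjusted p up to 0.171). C1qa (-0.14) with all 6 lost its call with library totals (adjusted p = 0.331).

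Of 24 components of AMPK and mTOR 5 were higher and 3 lower with all 6, and 1 and 1 with 5. Of all genes 12.5% were higher and 12.1% lower with all 6, and 8.5% and 9.84% with 5. With all 6, the EAE libraries only gave 1 higher, limma voom 3 and the removal of the length trend 2, and with 5 the title range gave 4 higher. With library totals 9 and 6 were higher and none lower, beside 28.1% and 20% higher of all genes. Prkaa1, the AMPK catalytic subunit alpha 1, was at 16.9 to 32.3 CPM (median 27.3) in control EAE, 33.5, 33.1, 37.2, 33.4 and 40.3 CPM with metformin and 31.3 in replicate 22. It changed by 0.43 ± 0.13 with all 6 (adjusted p = 0.019) and 0.46 ± 0.13 with 5 (adjusted p = 0.0202), and with 5 the call was lost without metformin EAE 21 (adjusted p = 0.0528). Prkaa2, alpha 2, changed by 0.26 ± 0.24 with all 6 (adjusted p = 0.464) and 0.22 ± 0.26 with 5 (adjusted p = 0.593) and did not pass. Prkag1, a regulatory subunit, changed by -0.33 ± 0.08 with all 6 (adjusted p = 0.00554) and -0.31 ± 0.08 with 5 (adjusted p = 0.0116), lost with library totals. The other 4 higher and 2 lower genes with all 6 were not called with 5. Txnip, which restrains glucose uptake, was at 190 to 384 CPM (median 316) and 318 to 562 CPM (median 373) with metformin, and its change (0.38 ± 0.16, adjusted p = 0.0782 with all 6, 0.26 ± 0.14, adjusted p = 0.215 with 5) did not pass. Prkag1 with 5 lost its call with the length trend removed (adjusted p = 0.0732).

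Of 6 transporters known to carry metformin 1 passed the filter on low counts, Slc29a4, at 0.41 ± 0.20 with all 6 (adjusted p = 0.144) and 0.15 ± 0.15 with 5 (adjusted p = 0.536). Of 21 glycolysis genes Hk2 (0.52 ± 0.10, adjusted p = 0.0025 with all 6, 0.53 ± 0.11, adjusted p = 0.00339 with 5), hexokinase 2, was higher and Slc2a3 (-0.40 and -0.41), a glucose transporter, lower. The call of Slc2a3 was lost without control EAE 1, 2 and 9, metformin EAE 5, 6 and 14 (adjusted p up to 0.0649) with all 6 and control EAE 1, 2 and 9, metformin EAE 5, 6 and 14 (adjusted p up to 0.0983) with 5. Among 16 hypoxia response genes Vegfa, a vascular growth factor, was at 2.59 to 4.45 CPM (median 4.08) in control EAE, 6.86, 5.15, 6.93, 7.11 and 8.06 CPM with metformin and 15.2 in replicate 22. Vegfa changed by 1.10 ± 0.24 with all 6 (adjusted p = 0.00353) and 0.83 ± 0.19 with 5 (adjusted p = 0.00635). Kdm3a (0.41 and 0.40), a histone demethylase, and Pdk1 (0.35 and 0.34), which restrains pyruvate oxidation, were higher, and Ndrg1 (-0.60 ± 0.09, adjusted p = 0.000656 with all 6, -0.62 ± 0.09, adjusted p = 0.000707 with 5) lower. Vegfa and Pdk1 were named after their values were seen. None of 16 circadian clock genes was called by edgeR in either fit, with Dbp (-0.43 ± 0.17, adjusted p = 0.0678 with all 6, -0.46 ± 0.18, adjusted p = 0.078 with 5) and Clock (0.32 ± 0.13, adjusted p = 0.0824 with all 6, 0.29 ± 0.14, adjusted p = 0.151 with 5) at the smallest p. Under an unadjusted p of 0.05 were 4 in each fit, DESeq2 called 2 and 1, and limma voom 2 in each. Without control EAE replicate 10 edgeR called 4 clock genes lower with all 6 and 2 with 5, beside 12.1% and 10.8% of all genes. Slc2a3 with all 6 and Slc2a3 with 5 lost its calls in the fit of EAE libraries only (adjusted p up to 0.0916). Pdk1 (0.19) with all 6 and Pdk1 (0.20) with 5 lost its calls with the length trend removed (adjusted p up to 0.104). Kdm3a changed by 0.23 with all 6, and Kdm3a changed by 0.26 with 5, with the length trend removed. Slc2a3 (-0.16) with all 6 and Slc2a3 (-0.23) with 5 lost its calls with library totals (adjusted p up to 0.286). Kdm3a changed by 0.63, Pdk1 by 0.58 and Ndrg1 by -0.37 with all 6, with library totals.

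Markers of other cells were checked in 14 lists, and their part in the other results was not tested. Of 97 tested with all 6, 16 were higher (16.5%) and 8 lower (8.25%), beside 12.5% and 12.1% of all genes. With 5, 11 of 100 were higher (11%) and 6 lower (6%), beside 8.5% and 9.84%. Of 15 neuron markers 3 were higher with all 6, and the neurofilament genes Nefl (0.71 and 0.49) and Nefh (1.12 and 0.61) were the 2 also higher with 5. Their summed level was 273 to 463 CPM in control EAE, 356 to 487 CPM in 5 metformin libraries and 1090 CPM in replicate 22, where healthy libraries had 742 to 1030 CPM. Of the neuron markers DESeq2 called 5 higher, the title range 6 and library totals 8 with all 6, and limma voom 4 with 5. Leaving out 1 library gave 2 to 8 higher neuron markers with all 6 and 2 to 5 with 5. Without control EAE replicate 10 these were 8 and 5, beside 12.9% and 10.3% of all genes. Astrocyte markers had 4 higher and 1 lower of 11 with all 6 and 3 and 0 with 5, led by the glutamate transporter Slc1a2 (0.90 ± 0.23, adjusted p = 0.00913 with all 6, 0.56 ± 0.14, adjusted p = 0.00958 with 5). With all 6, the EAE libraries only gave 2 higher and the removal of the length trend 1, and with 5 each gave 1. They were at a summed 694 to 770 CPM, 657 to 810 CPM and 982 CPM in control EAE, 5 metformin libraries and replicate 22. Oligodendrocyte markers had 1 of 8 higher, Ugt8a (1.04 and 0.87), with 5 lost without metformin EAE 5, 6, 14 and 21 (adjusted p up to 0.1), at a summed 2720 to 3450, 2650 to 2890 and 3240 CPM. Of 7 markers of oligodendrocyte precursors, at 90.4 to 172, 83.1 to 107 and 84.8 CPM, the transcription factors Olig2 (0.64 and 0.39) and Sox10 (0.53 and 0.25) were higher with all 6, lost without control EAE 1, 9 and 10, metformin EAE 6 and 22 (adjusted p up to 0.11) and control EAE 1, 17 and 18, metformin EAE 22 (adjusted p up to 0.0678). With 5 the proteoglycan Cspg4 (-1.02 and -0.80) was lower, lost without control EAE 1, 2 and 17, metformin EAE 5, 6 and 14 (adjusted p up to 0.115). Olig2 and Sox10 with all 6 and Ugt8a and Cspg4 with 5 lost their calls in the fit of EAE libraries only (adjusted p up to 0.0833). Cspg4 with 5 lost its call without a filter on low counts (adjusted p = 0.0904). Olig2 (0.27) with all 6 lost its call with limma voom (adjusted p = 0.239). Nefl changed by 0.44, Nefh by 0.65, Slc1a2 by 0.58 and Sox10 by 0.32 with all 6, with limma voom. Cspg4 with 5 lost its call with the title range as a covariate (adjusted p = 0.0528). Slc1a2 changed by 0.36 with 5, with the length trend removed. Cspg4 with 5 lost its call with library totals (adjusted p = 0.0634). Sox10 changed by 0.80 with all 6, with library totals.

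Markers of monocyte-derived cells summed to 250 to 547 CPM in control EAE, 171 to 547 CPM in 5 metformin libraries, 13.2 CPM in replicate 22 and 5.13 to 11.8 CPM in healthy libraries. Of 7 tested with all 6 and 8 with 5, 1 was lower in each fit, Plac8 (-1.61 ± 0.39, adjusted p = 0.00658 with all 6, -1.40 ± 0.34, adjusted p = 0.00893 with 5). Border macrophage markers summed to 52 to 106 CPM, 22.1 to 45.2 CPM and 3.57 CPM, without overlap, and 0.855 to 4.58 CPM in healthy libraries. Of 4 tested, 1 was lower with all 6, Folr2 (-1.48 ± 0.48, adjusted p = 0.0309 with all 6, -1.32 ± 0.49, adjusted p = 0.0666 with 5), lost without control EAE 1 and 9, metformin EAE 5, 14, 21 and 22 (adjusted p up to 0.127). Another was lower with 5, Ms4a7 (-1.17 ± 0.56, adjusted p = 0.137 with all 6, -0.91 ± 0.24, adjusted p = 0.0159 with 5), and Pf4 was at 0 throughout. The T cell list summed to 65.7 to 113 CPM, 64 to 74.7 CPM and 89.2 CPM. Of 7 tested 1 was lower with all 6, Foxp3 (-0.41 ± 0.14, adjusted p = 0.0355 with all 6, -0.39 ± 0.14, adjusted p = 0.0641 with 5), lost without control EAE 1 and 10, metformin EAE 6, 13, 21 and 22 (adjusted p up to 0.0822), and Trac at 0 throughout. Without control EAE 9 the change of Folr2 was -0.82, and without control EAE 10 that of Foxp3 was -0.26. With 5 edgeR called none of 8, 1 was under an unadjusted p of 0.05, DESeq2 called 1 and limma voom 0. Folr2 and Foxp3 with all 6 lost their calls in the fit of EAE libraries only (adjusted p up to 0.0662). Folr2 with all 6 lost its call without a filter on low counts (adjusted p = 0.0607). Folr2 (-0.86) and Foxp3 (-0.20) with all 6 lost their calls with limma voom (adjusted p up to 0.136). Folr2 with all 6 lost its call with the length trend removed (adjusted p = 0.0539). Foxp3 (-0.19) with all 6 lost its call with library totals (adjusted p = 0.348).

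Among Schwann cell markers Prx (-2.11 ± 0.46, adjusted p = 0.00407 with all 6, -2.03 ± 0.50, adjusted p = 0.00979 with 5), a gene of peripheral myelin, was lower in both fits, and control EAE replicate 10 held its highest level. The list as a whole summed to 360 to 584 CPM, 398 to 470 CPM and 394 CPM. Among mural cell and fibroblast markers, 374 to 834 CPM in control EAE, 239 to 523 CPM in 5 metformin libraries and 41 CPM in replicate 22, the matrix protein Dcn was lower with all 6 (-1.21 ± 0.41, adjusted p = 0.0397 with all 6, -1.01 ± 0.35, adjusted p = 0.0545 with 5), lost without control EAE 9 and 10, metformin EAE 5, 6, 13 and 22 (adjusted p up to 0.11). With 5 edgeR called none of 10, where 2 were under an unadjusted p of 0.05 and DESeq2 and limma voom each called 1. Endothelial markers summed to 70.2 to 152, 70.2 to 117 and 33.6 CPM, and Cldn5 was at 0 throughout. Of 9 tested, Pecam1 (1.46 ± 0.35, adjusted p = 0.00652 with all 6, 0.96 ± 0.23, adjusted p = 0.00879 with 5) was higher in both fits, with healthy libraries at 21.6 to 35.2 CPM, and Slco1a4 (1.71 ± 0.56, adjusted p = 0.0307 with all 6, 1.51 ± 0.57, adjusted p = 0.0711 with 5) with all 6, lost without control EAE 1, 9 and 18, metformin EAE 6 and 22 (adjusted p up to 0.0875). Dcn with all 6 lost its call without a filter on low counts (adjusted p = 0.0761). Slco1a4 with all 6 lost its call with limma voom (adjusted p = 0.076). Dcn changed by -0.77 with all 6, with limma voom. Dcn with all 6 lost its call with library totals (adjusted p = 0.0532).

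Dendritic cell markers summed to 62 to 108 CPM in control EAE, 126 to 302 CPM in 5 metformin libraries, 629 CPM in replicate 22 and 376 to 656 CPM in healthy libraries. Most of this sum was Siglech, counted among the homeostatic genes as well, at 41.6 to 92.1 CPM (median 72.2) in control EAE, 287, 202, 110, 152 and 154 CPM with metformin, 612 in replicate 22 and 362 to 641 CPM in healthy libraries. Of 6 tested with all 6 and 7 with 5, the cytokine receptor Flt3 (1.53 ± 0.33, adjusted p = 0.00346 with all 6, 1.09 ± 0.25, adjusted p = 0.00597 with 5) and Siglech were higher, and Cd24a (-0.59 and -0.61) was lower but not when library totals set the scale. B and plasma cell markers summed to 12.4 to 85.6, 15.9 to 86.2 and 21.1 CPM, with 2 of 4 higher, Cd79b (0.59 and 0.47) and Ighm (1.41 and 1.13). With 5 these were lost without metformin EAE 6 (adjusted p = 0.0506) and control EAE 1, metformin EAE 5, 6 and 21 (adjusted p up to 0.0843). Neutrophil markers summed to 3.5 to 8.9, 1.77 to 5.53 and 1.11 CPM, with Ly6g at 0 throughout. Of the 3 tested edgeR called none in either fit, 1 was under an unadjusted p of 0.05, and DESeq2 and limma voom each called 1 with 5 and 0 with all 6. Erythroid markers summed to at most 1.38 CPM in any EAE library, and edgeR, DESeq2 and limma voom called neither of the 2 tested, none of them under an unadjusted p of 0.05. Ighm with 5 lost its call in the fit of EAE libraries only (adjusted p = 0.0734). Ighm (0.76) with all 6 and Ighm (0.69) with 5 lost its calls with limma voom (adjusted p up to 0.133).

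The genes of at least 5 CPM whose change depended most on replicate 22 moved both ways. Zfp318, a nuclear protein, was at 7.63 to 15.5 CPM (median 9.46) in control EAE, 9.66, 8.5, 9.92, 17.2 and 12.9 CPM in 5 metformin libraries and 69.8 in replicate 22, and its change did not pass in either fit (1.07 ± 0.55, adjusted p = 0.167 with all 6, 0.19 ± 0.41, adjusted p = 0.787 with 5). Mrc2, a collagen receptor, showed the same (0.90 ± 0.48, adjusted p = 0.186 with all 6, 0.13 ± 0.34, adjusted p = 0.837 with 5). Tro, at 1.58 and 0.85, stayed called. In the other direction, Pla2g2d, a secreted phospholipase, was at 11 to 36.6 CPM (median 26.3) in control EAE, 5.11, 6.66, 25.6, 12.1 and 17.2 CPM in 5 metformin libraries and 0.0362 in replicate 22, and its change did not pass (-1.19 ± 0.64, adjusted p = 0.185 with all 6, -0.92 ± 0.39, adjusted p = 0.112 with 5). Clec4d, a lectin receptor, was called with 5 only (-1.14 ± 0.55, adjusted p = 0.141 with all 6, -0.87 ± 0.25, adjusted p = 0.0204 with 5), lost without control EAE 9, metformin EAE 5 and 6 (adjusted p up to 0.0622). Mamdc2 (-1.24 ± 0.66, adjusted p = 0.175 with all 6, -0.98 ± 0.43, adjusted p = 0.119 with 5) passed in neither fit. Trp53bp1, Itga9, Fabp4 and Ms4a7 were the other 4 genes of this kind. Tro changed by 0.92 with all 6, with limma voom. Clec4d with 5 lost its call with library totals (adjusted p = 0.0501).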

How the data were processed

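RNA sequencing counts of 18 libraries were analysed, 12 of them from EAE mice. Per the labels, RNA was extracted with the Direct-zol RNA MiniPrep Plus kit and KAPA Stranded RNA-Seq libraries followed mRNA enrichment. bcl2fastq 2.17, FastQC, Trimmomatic and the build mm10 are named in the submitters' processing notes, while aligner, counter and annotation were not given in the sources used here. The authors deposited raw counts per gene for all libraries in a table of 39017 genes, of which 14191 were at 0 in every library. Symbols, positions and exon lengths came from GENCODE M21 (GRCm38) and were found for 37693 genes.

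Genes were kept by edgeR's filterByExpr (minimum count 10), scaled by TMM and fitted with edgeR 4.0.16 (R 4.3.3), using the robust quasi-likelihood F test on all 18 libraries, so that healthy libraries share in the estimate of spread. The contrast was metformin EAE minus control EAE, with p-values adjusted by Benjamini-Hochberg over all tested genes and a threshold of 0.05, and the fit was repeated without metformin EAE replicate 22. A standard error is the absolute log2 change over the square root of F. DESeq2 1.42.0 and limma 3.58.1 served as alternatives. Values per library were compared by exact two-sided permutation tests (scipy 1.17.1). In simulated counts for this comparison the fit recovered 50.7% of 67 genes changed 1.5-fold, 88.1% of 67 changed 2-fold and 97% of 66 changed 4-fold. There were 6 false calls in 16567 tested genes. Far fewer genes were changed there than the 24.6% called in the data with all metformin libraries. Recovery for genes of low level, or with a library set apart like replicate 22, was not tested. The simulated shares and false calls may therefore look better than those of the real comparison. No libraries of a group agreed within sampling noise (lowest chi-square per degree of freedom 15.5), so none was counted as a duplicate.

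Libraries were grouped by their labelled disease and treatment. Genes named were the 10 largest rises and 10 largest falls of at least 5 CPM called in both fits (leaving out predicted genes), the 2 genes of smallest p in each list, the fixed genes Prkaa1, Prkaa2, Kdm6a, Kdm6b, Tmem119, P2ry12, Rpl22, Apoe, Il1b, Tnf, Gdf15 and Txnip, and the 5 genes of at least 5 CPM moved most each way by leaving out replicate 22. Others are said to be named after their values were seen. The 46 gene lists, the rule and the tests were chosen with earlier results of these data known. Some genes that the rule or the lists hold are not reported here.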

Additional observations from a re-analysis of the deposited data

Results flagged for a closer look

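Each gene with levels by library and 8 values per library were checked for a library far from the rest of its group of 6 (by Dixon's 95% critical value). Of 110 groups 20 held such a library, and the genes are not independent. A rate by chance of about 1 in 20 groups would hold only for genes chosen without regard to their values. Many genes here were named for the size or p of a change computed with replicate 22 included. Some were named because their change depended most on replicate 22. The count of 20 can therefore not be set against that rate. Gene levels were checked in CPM and not on a log scale.

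Metformin EAE replicate 22 was the library set apart in 15 of them. It was higher than the other 5 metformin libraries in Trp53bp1 (9070 CPM against 859 to 3260), Itga9 (66.2 against 6.97 to 27), Mir124a-1hg (27.8 against 4.98 to 8.54), Xist (42.1 against 6.93 to 18.9), P2ry12 (696 against 171 to 361), Siglech (612 against 110 to 287), Cx3cr1 (5170 against 2020 to 2950), Zfp318 (69.8 against 8.5 to 17.2), Vegfa (15.2 against 5.15 to 8.06) and mt-Co1 (1760 against 592 to 836 CPM). It was lower in Apoe (7080 CPM against 65100 to 97200) and Atf5 (51.3 against 80.7 to 94.4 CPM). Apoe took 0.834% of its counts, against 6.71 to 9.24%, and mitochondrially encoded genes 0.884%, against 0.184 to 0.305%. Its correlation with its own group was 0.967, against 0.992 to 0.997.

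Control EAE replicate 10 was set apart in 3 groups, in Il1b (13.1 CPM against 3.54 to 6.88), Ndufa2 (96.5 against 47.3 to 63.3 CPM) and its correlation with its own group (0.974 against 0.99 to 0.997). Control EAE replicate 9 was high in Apoc4 (244 CPM against 86.6 to 128). Metformin EAE replicate 21 was high in Ciita (57 CPM against 4.78 to 22.6).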

How the results depend on the processing

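The number of genes called moved by more than 1.5 times in few settings, which are given as shares of the genes tested. With library totals alone 28.1% were higher and 3.68% lower with all 6 metformin libraries, and 20% and 2.74% with 5, and the median log2 change of all genes was 0.231 and 0.168. The cause was not tested. With the 12 EAE libraries only, 8.03% were higher (1292 genes), and 5.59% with 5 (906 genes). This fit has fewer samples and leaves the healthy libraries out of the estimate of spread. Pairs of healthy libraries had a chi-square per degree of freedom of 15.5 to 75.6. Control EAE pairs had 24.7 to 319 and metformin EAE pairs 28.1 to 811, or up to 211 without replicate 22. What lowered the count was not tested. Over single libraries left out, 8.5 to 13% were higher and 9.43 to 12.5% lower with all 6. With 5 these ranges were 4.99 to 10.3% and 6.10 to 10.9%, lowest without metformin replicate 5. In the other settings the number of genes called stayed within 1.5 times, while the shares also moved with the number of genes tested. Without a filter the shares were 7.04% higher and 6.76% lower (4.86% and 5.37% with 5), and with a mean of at least 5 CPM and 5 libraries 14.1% and 15.6%. DESeq2 called 2381 higher and 2356 lower genes with all 6 and 1765 and 2025 with 5. Without a filter on low counts 1748 and 1679 were called with all 6, by limma voom 1992 and 2154, and with the range of the title number as a covariate 2428 and 2174. Removal of the length trend, chosen after seeing the data, gave 1527 and 1794.

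Of 156 named genes with a fit, 133 were called with all 6, and 91 of these kept direction and call in all alternatives. With 5 libraries 128 were called and 81 kept both. The cause of the losses was not tested. Signs reversed only in genes that were not called. Over single libraries left out Cd74 ranged from -0.03 to 0.43, and with 5 libraries Prkaa2 from -0.02 to 0.39, Mrc2 from -0.39 to 0.3 and Ndufs1 from 0 to 0.12. Without the length trend Ndufs1 was at -0.13 (-0.11 with 5) and Zfp318 at -0.02 with 5. Mrc2 with 5 was at -0.05 with limma voom and with the title range. Metformin libraries had 294 more genes of at least 10 counts (exact permutation adjusted p = 0.0747), and 276 more among genes past the filter (exact permutation adjusted p = 0.00974). The mean correlation with the own group was higher by 0.004 with metformin when replicate 22 was left out, the reverse of the value with all 6 (exact permutation adjusted p = 0.548). The groups compared share no replicate numbers, so libraries were not paired. Each range of title numbers holds libraries of every group, and the permutation tests did not use the range. In healthy libraries mitochondrially encoded genes took 0.236% and 0.238% of counts in replicates 3 and 4. They took 0.643 to 0.714% in replicates 11, 12, 19 and 20. The fit with the range of the title number as a covariate, which is not stated to be a batch, gave 1845 and 1884 calls with 5, and of the named genes it ended the calls of Saa3 with all 6 and Cspg4 with 5.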
